A study of Mus musculus with 20 samples.

Results

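Expression of the interferon and interleukin-10 receptor genes that the Dp1Tyb duplication carries was examined in mouse embryonic hearts. The group holds 5 genes of the 48795 in the deposited table. Ifnar1, Ifnar2, Ifngr2 and Il10rb lie inside the duplicated stretch of mouse chromosome 16 and were chosen by that position and by their family, and Ifngr1, the partner chain of Ifngr2 on chromosome 10, was added as the two-copy member. The rule itself uses no measured value, but it was set with earlier results of these data known. The 4 three-copy genes are among 232 genes of the table between Lipi and Zbtb21, the ends of the duplication, and all 5 members passed the filter on low values (10 normalized counts or more on average over the hearts), which kept 15304 genes in all and 95 of the 232.

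RNA was measured in 20 whole hearts at E13.5, in mid-gestation, each from a separate embryo on the C57BL/6J background. Of these, 10 hearts were wild type (WT). A further 5 were Dp1Tyb, a mouse model of Down syndrome with a tandem duplication from Lipi to Zbtb21, so that these embryos hold 3 copies of its genes. The last 5 were labelled Dp1TybDyrk1a+/+/-, which carry the same duplication together with a null allele of Dyrk1a, a protein kinase gene of the region, so that 2 working copies of Dyrk1a remain while the other duplicated genes stay at 3 copies. This strain descends from 1 pup in which a crossover had joined both alleles on one chromosome. The labels do not tie the WT hearts to the litters of either strain, and the labels give no sex. Whole hearts mix many cell types, so more cells that express a gene and more RNA per cell cannot be told apart. The study asked which three-copy genes matter for the heart defects of this model and whether Dyrk1a is one of them.

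Interferons and interleukin-10 act through receptors of the class II cytokine receptor family, each built of a pair of different chains. IFNAR1 and IFNAR2 form the receptor for type I interferons (interferon-alpha and interferon-beta). IFNGR1, which binds interferon-gamma, works with IFNGR2. IL10RB is the shared accessory chain that pairs with IL10RA for interleukin-10 and with IFNLR1 for type III interferons, among others. Ligand binding activates the Janus kinases (JAK) bound to the chains, which phosphorylate STAT transcription factors, and these, with IRF9, then switch on interferon-stimulated genes, whose products restrict viruses. In the human genome the same 4 receptor genes sit together on the chromosome that is present in an extra copy in Down syndrome, and raised interferon signalling is a known feature of that condition.

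In GRCm38.p6 coordinates of RefSeq, the 4 genes lie on the plus strand of chromosome 16 within 191.2 kb, in the order Ifnar2 (91372783 to 91405589), Il10rb (91406157 to 91425834), Ifnar1 (91485032 to 91510523) and Ifngr2 (91547059 to 91564007). Il10rb begins 567 bases after the end of Ifnar2. Ifngr1 lies on the plus strand of chromosome 10, from 19591949 to 19610229. Their Ensembl identifiers are ENSMUSG00000022971 for Ifnar2, ENSMUSG00000022969 for Il10rb, ENSMUSG00000022967 for Ifnar1, ENSMUSG00000022965 for Ifngr2 and ENSMUSG00000020009 for Ifngr1. A readthrough gene, Gm21970, overlaps both Ifnar2 and Il10rb on the same strand, and the counting could split reads among the 3. An antisense gene, Gm36587, also overlaps Ifnar2 and was not analysed here. The strand setting of the counting is not given in the sources used here, so reads of Ifnar2 and of its antisense partner cannot be told apart.

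Promoter windows of 250 bases are shown for 4 of the 5 members. They are given because copies made by a tandem duplication carry their own promoters, and the chains of one receptor differ in what lies there. The windows of Ifnar2, Ifngr2 and Ifngr1 end just before the gene start given above. The Ifnar1 window runs past its start (91485032), so most of its bases lie inside the gene as placed above. The build is GRCm38.p6, all are on the plus strand from 5′ to 3′, and capitals mark GC boxes (GGGCGG on either strand, overlapping matches included), a motif common in promoters of broadly expressed genes.
Ifnar1 (chr16:91484965-91485214): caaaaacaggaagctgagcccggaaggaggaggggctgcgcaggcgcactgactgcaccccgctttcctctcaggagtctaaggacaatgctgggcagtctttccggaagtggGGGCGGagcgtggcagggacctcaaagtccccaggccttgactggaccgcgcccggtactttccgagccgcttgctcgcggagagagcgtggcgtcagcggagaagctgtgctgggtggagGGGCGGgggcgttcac
Ifnar2 (chr16:91372533-91372782): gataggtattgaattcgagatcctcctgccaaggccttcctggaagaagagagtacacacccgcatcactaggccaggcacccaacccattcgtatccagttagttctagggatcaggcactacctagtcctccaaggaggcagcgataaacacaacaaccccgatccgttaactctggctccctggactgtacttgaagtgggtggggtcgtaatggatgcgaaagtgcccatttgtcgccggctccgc
Ifngr2 (chr16:91546809-91547058): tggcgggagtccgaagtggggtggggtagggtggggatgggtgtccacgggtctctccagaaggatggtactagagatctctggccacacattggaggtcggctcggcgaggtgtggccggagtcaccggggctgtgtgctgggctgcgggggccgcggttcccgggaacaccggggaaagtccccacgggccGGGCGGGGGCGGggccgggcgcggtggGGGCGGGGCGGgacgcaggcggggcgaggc
Ifngr1 (chr10:19591699-19591948): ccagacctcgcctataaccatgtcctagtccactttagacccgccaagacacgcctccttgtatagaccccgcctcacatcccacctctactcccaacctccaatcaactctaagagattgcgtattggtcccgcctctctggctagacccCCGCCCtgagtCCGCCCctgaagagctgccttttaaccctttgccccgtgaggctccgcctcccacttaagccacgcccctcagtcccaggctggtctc
The Ifngr2 window is the richest in G and C, at 74.0% with 25 CpG dinucleotides and 4 GC boxes, and 95.1% of the 32851 promoters of the table have a lower GC content. The Ifnar1 window holds 65.6% G and C, 19 CpG dinucleotides and 2 GC boxes. The Ifngr1 window holds 59.2% G and C and 2 GC boxes. The Ifnar2 window, at 54.0% with 0 GC boxes, is close to the median of the table, 52.4%. GC boxes occur in 32.7% of all promoters of the same length.

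Motifs of interferon signalling itself were also counted, in windows too few to set a share of their own against that of all promoters. The interferon-stimulated response element (GAAA, any 2 bases, GAAA), searched on both strands, was found 0 times in the 4 windows and occurs in 2.98% of all promoters. The gamma-activated site TTCNNNGAA, a motif of STAT factors, occurred once, in Ifnar2, against 7.02% of all promoters with a match. The ETS letters CCGGAAG were present at 2 places in Ifnar1 alone among the 4 windows (6.91% of all promoters). The TATA box TATAAA was at 0 in all 4 (12.4%), and CCAAT occurred 2 times in Ifngr1 and 1 time in Ifngr2 (33.9%). Such matches describe the letters only.

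Levels were read as log2 normalized counts, the scale of the deposited table, and folds here are 2 raised to a difference on it. Every library was scaled to the others before deposit. How the counts were transformed is not given in the sources used here, and some transformations draw differences in, so a fold of the underlying counts may exceed the fold printed. The median SD of a gene over the WT hearts was 0.044 log2 units for the 3911 tested genes that averaged 10 to 100 normalized counts, 0.059 for the 7175 between 100 and 1000 and 0.054 for the 4218 at 1000 or more. As a check of the labels, Dyrk1a ran from 11.28 to 11.43 in WT hearts, from 11.65 to 11.75 in Dp1Tyb hearts and from 11.70 to 11.85 in hearts labelled Dp1TybDyrk1a+/+/-. Dyrk1a was thus higher than WT in both groups and did not separate them (log2 difference Dp1Tyb minus Dp1TybDyrk1a+/+/- of -0.073, limma adjusted p = 0.209). A gene-level count cannot tell transcripts of the null allele from those of intact copies, so it does not check that label. Markers of cardiomyocytes, fibroblasts, epicardium, smooth muscle, red cells and macrophages were all detected. Of 60 tested markers of these 6 lists, 0 passed the threshold in Dp1Tyb against WT (limma, 7 at an unadjusted p under 0.05). Of those 7, 3 cardiomyocyte markers and 1 smooth muscle marker were lower, and 3 fibroblast and cushion markers were higher. All 10 fibroblast and cushion markers had a log2 fold change above 0, against 4 of 13 cardiomyocyte markers. Endothelial markers (1 of 10 called) and lymphocyte and neutrophil markers (2 of 2 tested) are given below. Whether the mix of cells differed was not tested.

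All 4 three-copy receptor genes were higher in both duplication groups than in WT, by 1.28- to 1.37-fold, and Ifngr1 was not. The threshold was an adjusted p under 0.05 from limma, fitted over all 15304 genes and 20 hearts with Benjamini-Hochberg adjustment. It called 3.08% of all genes in Dp1Tyb against WT (1.81% higher) and 75.8% of the 95 tested three-copy genes. In hearts labelled Dp1TybDyrk1a+/+/- it called 0.712% of all genes (0.627% higher) and 72.6% of the three-copy genes. Of the 5 members, 4 passed it in each of these comparisons. Both comparisons use the same 10 WT hearts.

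Ifnar1, the signalling chain of the type I interferon receptor that binds the kinase TYK2, had the highest rise of the 5 members. In WT hearts its log2 normalized count ran from 10.65 to 10.76 with a median of 10.72. In Dp1Tyb hearts, in the order of their replicate numbers here and below, it was 11.16, 11.18, 11.16, 11.12 and 11.11, and in hearts labelled Dp1TybDyrk1a+/+/- it was 11.15, 11.31, 11.10, 11.13 and 11.17. Every heart of both duplication groups lay above every WT heart, with 0.350 log2 units between the lowest Dp1Tyb and the highest WT heart, a separation seen in 1.51% of all genes and 71.6% of three-copy genes. In Dp1TybDyrk1a+/+/- against WT it was seen in 0.562% and 66.3%. The log2 fold change in Dp1Tyb was 0.43 (95% confidence interval 0.372 to 0.484, n = 5 against 10, adjusted p = 1.27e-09), a fold of 1.35. In Dp1TybDyrk1a+/+/- it was 0.45 (0.396 to 0.508, adjusted p = 7.33e-10), a fold of 1.37.

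Ifnar2, the chain that binds interferon with high affinity and carries the docking sites for STAT proteins, rose by less. It ran from 8.998 to 9.223 (median 9.091) in WT hearts, with the widest WT spread of the 5 members (SD 0.063). The Dp1Tyb hearts were at 9.448, 9.469, 9.444, 9.418 and 9.418. Those labelled Dp1TybDyrk1a+/+/- were at 9.396, 9.647, 9.432, 9.396 and 9.394, of which replicate 2 stood apart from the other 4. All 10 duplication hearts again exceeded all WT hearts. The log2 fold change was 0.35 in Dp1Tyb (0.273 to 0.431, adjusted p = 3.07e-06) and 0.37 in Dp1TybDyrk1a+/+/- (0.287 to 0.444, adjusted p = 1.46e-06). Without Dp1TybDyrk1a+/+/- replicate 2 the latter was 0.32, the lowest value that leaving out any 1 heart gave.

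Il10rb, the shared accessory chain whose gene follows Ifnar2 so closely, rose in both groups as well. WT hearts ran from 9.197 to 9.299 (median 9.250). Dp1Tyb hearts gave 9.636, 9.607, 9.665, 9.625 and 9.559, and Dp1TybDyrk1a+/+/- hearts 9.609, 9.595, 9.633, 9.661 and 9.733, with no overlap with WT in either group. The log2 fold change was 0.37 in Dp1Tyb (0.320 to 0.424, adjusted p = 2.53e-09) and 0.40 in Dp1TybDyrk1a+/+/- (0.348 to 0.452, adjusted p = 1.0e-09).

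Ifngr2, the signalling chain of the interferon-gamma receptor, which binds JAK2, showed the same separation. Its WT hearts ran from 10.70 to 10.86 (median 10.81). Dp1Tyb hearts were tightly grouped at 11.19, 11.17, 11.19, 11.15 and 11.16 (SD 0.016), while Dp1TybDyrk1a+/+/- hearts read 11.20, 11.11, 11.18, 11.23 and 11.20. Replicate 2 of that strain, highest of all 20 for Ifnar1 and Ifnar2, was the lowest of its group for Ifngr2. The log2 fold change was 0.38 in Dp1Tyb (0.324 to 0.427, adjusted p = 2.18e-09) and 0.39 in Dp1TybDyrk1a+/+/- (0.336 to 0.439, adjusted p = 1.28e-09). For each of the 4 genes in each comparison the exact two-sided permutation test over hearts gave p = 0.000333, the smallest that 3003 regroupings allow.

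Ifngr1, the ligand-binding chain of the same receptor, is not in the duplication and its groups overlapped. WT hearts ran from 8.747 to 8.850 (median 8.811). Dp1Tyb hearts were at 8.808, 8.788, 8.851, 8.849 and 8.789, and Dp1TybDyrk1a+/+/- hearts at 8.889, 8.758, 8.858, 8.830 and 8.845. The log2 difference from WT was 0.0092 in Dp1Tyb (-0.037 to 0.055, adjusted p = 0.895, exact permutation p = 0.562) and 0.028 in Dp1TybDyrk1a+/+/- (-0.018 to 0.074, adjusted p = 0.699, exact permutation p = 0.169). These intervals lie below those of all 4 three-copy members.

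**Figure D1:**
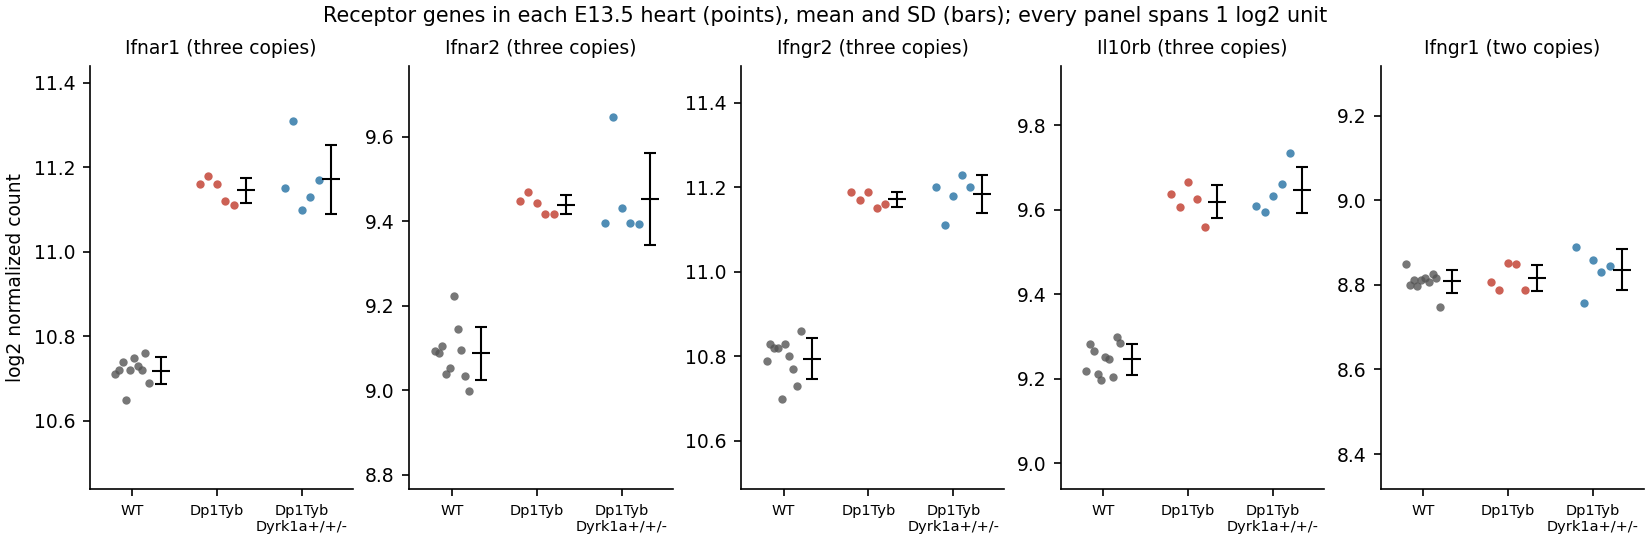
Log2 normalized count of each receptor gene in every heart (points) with the group mean and SD (bars), for 10 WT, 5 Dp1Tyb and 5 Dp1TybDyrk1a+/+/- hearts; each panel spans 1 log2 unit. The duplication hearts lie above every WT heart for the 4 three-copy genes, and all 3 groups overlap for Ifngr1.

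The levels of these genes did not differ detectably between the duplication groups. The log2 difference Dp1Tyb minus Dp1TybDyrk1a+/+/- was -0.024 for Ifnar1 (95% confidence interval -0.089 to 0.041, adjusted p = 0.704) and -0.013 for Ifnar2 (-0.104 to 0.078, adjusted p = 0.892). It was -0.012 for Ifngr2 (-0.072 to 0.047, adjusted p = 0.847), -0.028 for Il10rb (-0.088 to 0.032, adjusted p = 0.621) and -0.019 for Ifngr1 (-0.072 to 0.034, adjusted p = 0.721). All 5 intervals include 0, and none reaches as far from 0 as the rise of a three-copy member over WT. In this comparison limma called 1.16% of all genes and 2.11% of three-copy genes, and 0 of the 5 members passed it even at an unadjusted p under 0.05.

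An extra copy with matching output would give a fold of 1.5 in counts, a log2 difference of 0.585 if the deposited scale keeps differences whole. Whether it does so at the levels of the members was not tested. At low levels the values moved little. The median WT SD was 0.044 for genes of 10 to 100 normalized counts, below the 0.059 of those between 100 and 1000. An interval below 0.585 therefore does not show a rise in counts smaller than the extra copy would give. No 95% confidence interval of a three-copy member reached 0.585 in either comparison. Of the 95 tested three-copy genes, 0 had an interval that reached it in Dp1Tyb and 1, Sh3bgr, did in Dp1TybDyrk1a+/+/- (0.53, upper bound 0.640), a gene named after its values were seen. The median log2 fold change in Dp1Tyb was 0.334 over the 71 three-copy genes that averaged 100 normalized counts or more, and 0.048 over the 24 between 10 and 100, which ran from -0.0897 to 0.344. The part of the scale in that gap was not tested. Among the 95 tested three-copy genes, Ifnar1 ranked 4th by log2 fold change in Dp1Tyb and again 4th in Dp1TybDyrk1a+/+/-. Ifngr2 ranked 20th and 23rd, Il10rb 21st and 19th, and Ifnar2 25th and 37th. Ifnar1 lay above all 25 three-copy genes within 1 log2 unit of its level in Dp1Tyb (their median 0.348) and above 24 of them in Dp1TybDyrk1a+/+/-.

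Most genes around the receptors rose as well. In Dp1Tyb, 11 of the 12 tested genes that flank the cluster or lie within it passed the threshold, with a median log2 fold change of 0.30. In Dp1TybDyrk1a+/+/- 9 of the 12 did, with a median of 0.33. Tmem50b, the next tested gene after Ifngr2, had log2 fold changes of 0.41 and 0.43, and Paxbp1, just before Ifnar2, had 0.31 and 0.35. Son, which encodes a splicing cofactor, was at 0.38 and 0.46, and Gart, a purine synthesis enzyme gene, at 0.38 and 0.36. Eva1c was low at 0.097 (adjusted p = 0.0294) and 0.10 (adjusted p = 0.0578).

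Between the receptors themselves, the readthrough gene Gm21970 behaved less clearly than the genes it spans. It was weakly expressed, from 4.900 to 5.204 in WT hearts, and 4 of 5 Dp1Tyb hearts exceeded all WT hearts (5.132, 5.464, 5.228, 5.262 and 5.356). Its log2 fold change was 0.27 in Dp1Tyb (adjusted p = 0.00418) and 0.19 in Dp1TybDyrk1a+/+/- (adjusted p = 0.129). A930006K02Rik, a gene model between Il10rb and Ifnar1, was at 0.030 in Dp1Tyb (adjusted p = 0.293) and -0.014 in Dp1TybDyrk1a+/+/- (adjusted p = 0.756).

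**Figure D2:**
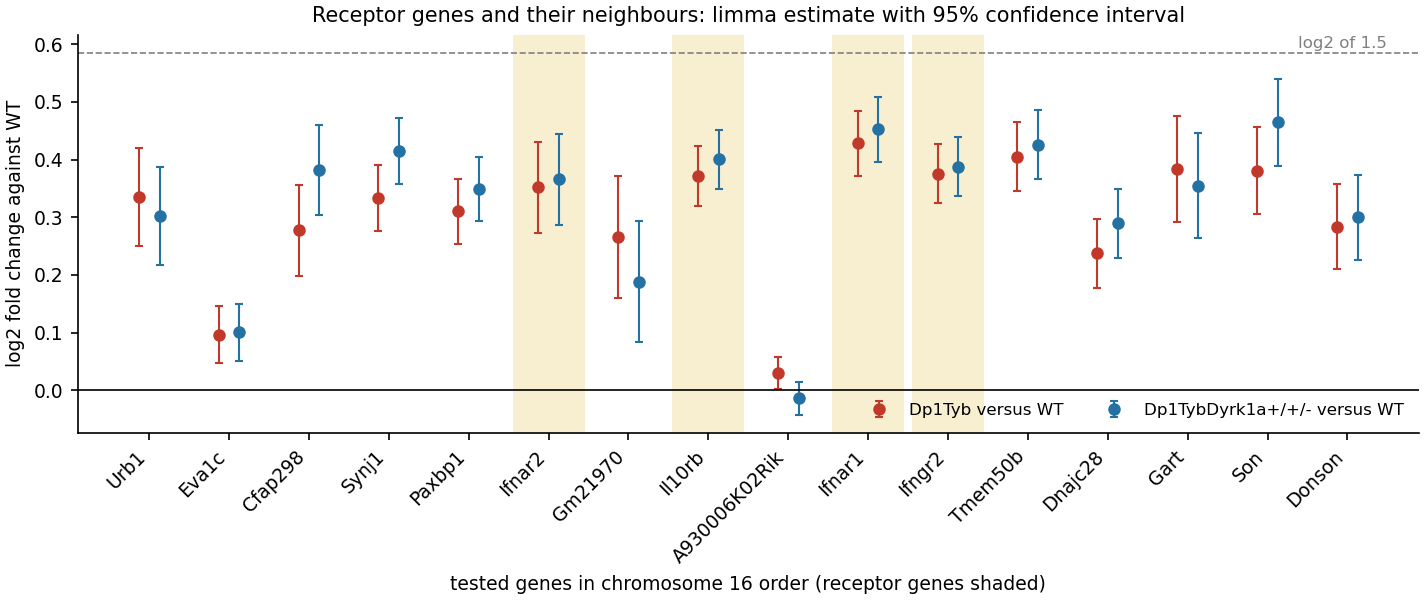
Log2 fold change against WT (y axis) with its 95% confidence interval for the receptor genes (shaded) and the tested genes around them in chromosome 16 order, in Dp1Tyb and in Dp1TybDyrk1a+/+/-. The 4 receptor genes lie between 0.35 and 0.45, every interval of theirs stays below the dashed line at log2 of 1.5 (0.585), and A930006K02Rik lies near 0.

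Levels were next compared between genes after division by the length of the canonical transcript, which gives a normalized count per kb. In WT hearts Ifngr2 stood highest at 472 ± 15.7 per kb (SD, n = 10), above Ifnar1 at 412 ± 9.15 in every heart. Ifngr1 followed at 212 ± 3.78. Ifnar2 at 165 ± 7.40 and Il10rb at 158 ± 4.03 did not differ beyond their spread, with Ifnar2 the higher in 8 of 10 hearts. These levels exceed those of 83.8%, 81.2%, 64.6%, 57.7% and 56.6% of 15167 tested genes. The remaining partner chains of Il10rb were weak: Ifnlr1 at 9.26 ± 0.229 and Il10ra at 8.24 ± 0.214 per kb, above 9.01% and 7.86% of genes.

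With the extra copy the order from the top stayed Ifngr2 and Ifnar1, and the ranges of the 3 genes below overlapped. Where these 3 stand depends on the canonical transcript used: 2.112 kb for Ifngr1, 3.293 kb for Ifnar2 and 3.839 kb for Il10rb. Other transcripts were not tried. In Dp1Tyb hearts Ifngr2 was at 613 ± 6.84 per kb and Ifnar1 at 554 ± 11.1 (n = 5). Ifngr1 at 214 ± 4.64, Ifnar2 at 211 ± 3.19 and Il10rb at 205 ± 5.55 formed a run in which neighbours overlapped. Within hearts Ifnar2 was above Il10rb in 5 of 5, and Ifngr1 was above Ifnar2 in 4 of 5. In hearts labelled Dp1TybDyrk1a+/+/- the ranges of Ifngr2 (618 ± 19.1) and Ifnar1 (564 ± 32.1) overlapped too, with Ifngr2 the higher in 4 of 5. Ifngr1, Ifnar2 and Il10rb were at 216 ± 7.25, 213 ± 17 and 209 ± 8.0 there and also overlapped.

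**Figure D3:**
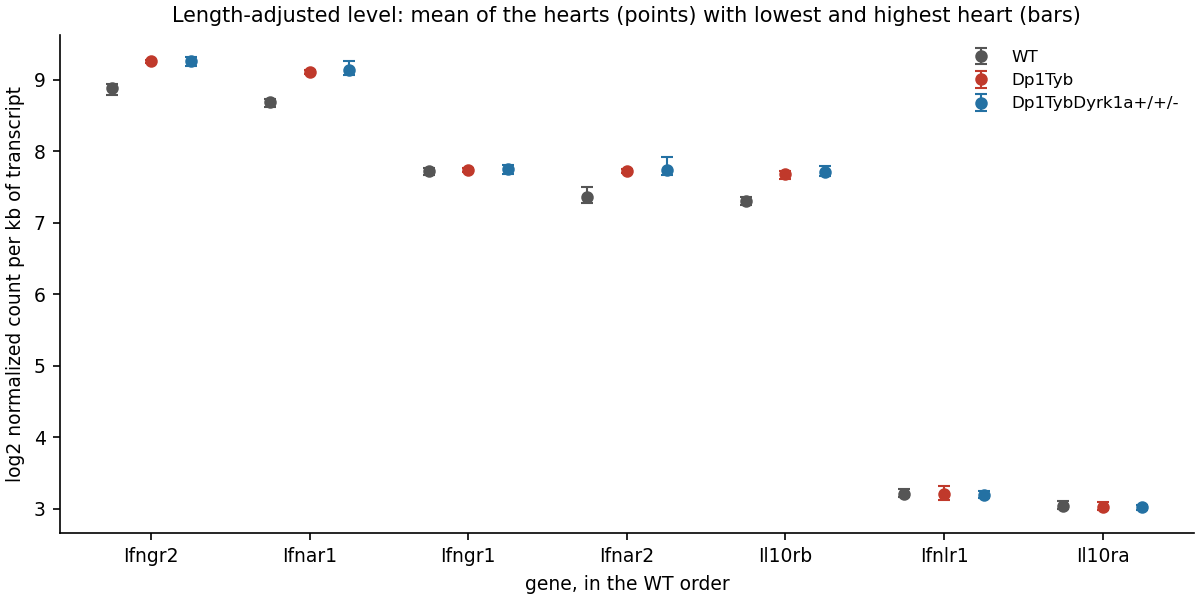
Log2 normalized count per kb of transcript (y axis) of the receptor genes and the 2 further partner chains of Il10rb, as the mean of the hearts (points) with the lowest and highest heart (bars) in each group. In WT hearts Ifngr1 stands above Ifnar2 and Il10rb, and in both duplication groups these 3 meet, while Ifnlr1 and Il10ra stay far below.

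Because receptors are built of pairs, the balance of the chains within each heart was tested as the log2 ratio of their normalized counts, by exact two-sided permutation over hearts with Benjamini-Hochberg adjustment over 12 tests (4 pairs, 3 comparisons). Where a single chain of the pair is duplicated, the ratio rose in both duplication groups. The Ifngr2 to Ifngr1 ratio was 1.99 ± 0.065 in WT (SD, n = 10), 2.35 ± 0.034 in Dp1Tyb and 2.35 ± 0.034 in Dp1TybDyrk1a+/+/- (n = 5 each), with no overlap with WT. The difference from WT was 0.37 and 0.36 (exact p = 0.000333, adjusted p = 0.000666 in both). The Il10rb to Il10ra ratio rose by 0.39 and 0.43 and the Il10rb to Ifnlr1 ratio by 0.39 and 0.41, at the same exact and adjusted p.

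The weak chains in these latter ratios call for a limit on how the values are read. Il10ra and Ifnlr1 are two-copy genes near 29 and 39 normalized counts, in the range of levels where three-copy genes had a median log2 fold change of 0.048. Their own log2 differences from WT in Dp1Tyb were -0.015 (adjusted p = 0.803) and -0.013 (adjusted p = 0.865).

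For the type I interferon receptor both chains are duplicated, and the ratio moved little. The Ifnar1 to Ifnar2 log2 ratio was 1.63 ± 0.056 in WT hearts (1.526 to 1.730). It was 1.708, 1.710, 1.719, 1.699 and 1.697 in Dp1Tyb hearts and 1.756, 1.659, 1.663, 1.736 and 1.772 in hearts labelled Dp1TybDyrk1a+/+/-. All 5 Dp1Tyb values lay within the WT range, and 3 of 5 Dp1TybDyrk1a+/+/- values lay above it. The ratio was higher than in WT by 0.076 in Dp1Tyb (exact p = 0.0120, adjusted p = 0.0200) and by 0.087 in Dp1TybDyrk1a+/+/- (exact p = 0.0133, adjusted p = 0.0200). The latter call rests on single hearts: without Dp1TybDyrk1a+/+/- replicate 1, 4 or 5 it was 0.077, 0.082 or 0.073 with an adjusted p of up to 0.0689. None of the 4 ratios differed detectably between Dp1Tyb and Dp1TybDyrk1a+/+/- (adjusted p from 0.328 to 0.738, exact permutation test). With hearts permuted within lanes, the Il10rb to Il10ra ratio was different by -0.057 (Dp1Tyb minus Dp1TybDyrk1a+/+/-, adjusted p = 0.0370). Lanes 3, 6 and 7 held 2, 2 and 1 Dp1Tyb hearts against 1, 1 and 3 Dp1TybDyrk1a+/+/- hearts. That permutation therefore has few regroupings, which limits how small its p can be.

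**Figure D4:**
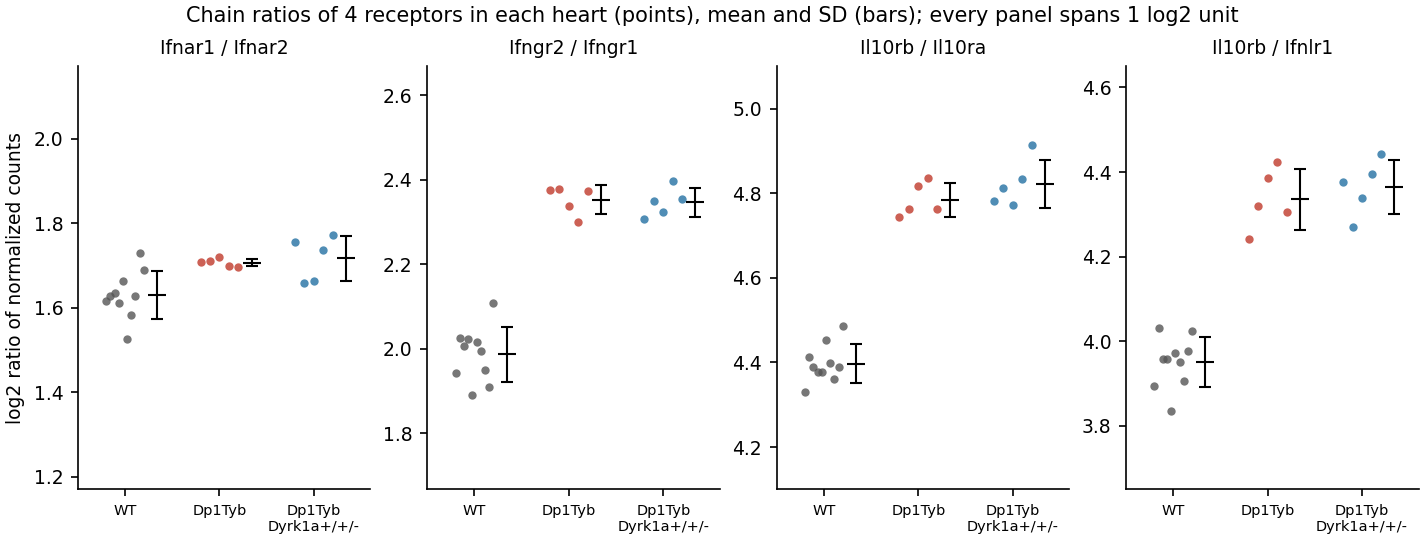
Log2 ratio of normalized counts (y axis) of the chains of 4 receptors in each heart (points), with the mean and SD of each group (bars); each panel spans 1 log2 unit. The 3 ratios with a two-copy partner separate both duplication groups from WT, and the ratio of the 2 duplicated chains, Ifnar1 to Ifnar2, overlaps WT.

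Library lanes, which the library names give as 3, 6 or 7, were spread unevenly over the groups (4, 4 and 2 WT hearts, 2, 2 and 1 Dp1Tyb hearts, 1, 1 and 3 Dp1TybDyrk1a+/+/- hearts). Within the lanes the Dp1Tyb difference from WT was 0.43, 0.41 and 0.45 for Ifnar1, 0.37, 0.31 and 0.40 for Ifnar2, 0.37, 0.38 and 0.37 for Ifngr2, and 0.32, 0.41 and 0.39 for Il10rb. In Dp1TybDyrk1a+/+/- it was 0.44, 0.44 and 0.47 for Ifnar1, 0.32, 0.28 and 0.45 for Ifnar2, 0.40, 0.41 and 0.36 for Ifngr2, and 0.35, 0.50 and 0.39 for Il10rb. Every one of these within-lane differences kept the sign of the pooled value.

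The ligands of these receptors were listed at 0 or lay far below the filter on low values. Of 24 genes of interferons and interleukin-10 family ligands, 17 were listed at 0 in every heart, and 0 passed the filter on low values. The other 7 (Ifnab, Ifng, Ifnz, Il10, Il19, Il20 and Il22) varied, with means on the log2 scale from -2.305 in Il20 to 0.16 in Ifnz. The other class II receptors were also sparse, with 4 of 7 genes tested, of which 0 passed the threshold in Dp1Tyb against WT (limma, 0 at an unadjusted p under 0.05 as well).

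Downstream of the receptors, 12 genes of kinases, STAT factors and their partners were tested. The kinases that bind these chains did not pass in Dp1Tyb against WT: Jak1 was at -0.038 (adjusted p = 0.40), Jak2 at -0.056 (adjusted p = 0.398) and Tyk2 at 0.064 (adjusted p = 0.387). Stat2 was at 0.048 (adjusted p = 0.489), Stat3 at 0.099 (adjusted p = 0.193) and Irf9 at 0.20 (adjusted p = 0.0762). The median over the 12 genes was 0.056 in Dp1Tyb, beside -0.0019 over all genes tested.

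Of 19 genes listed as inhibitors of these receptors, only Isg15 passed in Dp1Tyb. Whether its product inhibits the receptors in these hearts was not tested, and it is not counted among the interferon-stimulated genes below. Isg15 encodes a ubiquitin-like protein that is itself interferon-induced, and its log2 fold change was 0.20 (adjusted p = 0.0125), against 0.13 in Dp1TybDyrk1a+/+/- (adjusted p = 0.317). Without Dp1Tyb replicate 1 it also fell short (adjusted p = 0.0558). The feedback inhibitors Socs1 at 0.046 (adjusted p = 0.284), Socs3 at 0.061 (adjusted p = 0.692) and Usp18 at 0.11 (adjusted p = 0.116) did not pass.

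Among 35 tested interferon-stimulated genes, 7 (20%) passed in Dp1Tyb against WT, beside 3.08% of all genes. The 6 higher genes were Mx2, a dynamin-like antiviral GTPase gene, at 0.25 (adjusted p = 0.00155), Bst2, whose product tethers virus particles, at 0.32 (adjusted p = 0.0250), Rtp4 at 0.30 (adjusted p = 0.0125), Ifi44 at 0.29 (adjusted p = 0.0156), Lgals3bp at 0.24 (adjusted p = 0.0317) and Rigi, a sensor of viral RNA, at 0.17 (adjusted p = 0.0307). Ifit2 was lower, at -0.14 (adjusted p = 0.00852). Mx2 lies inside the duplication and so has 3 copies itself. The list's median was 0.091, against -0.0019 over all genes, and 33 of 35 genes had a value above 0.

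These interferon-stimulated genes varied more among Dp1Tyb hearts than the receptors did. Dp1Tyb replicate 1 was the highest of all 20 for all 6 higher genes. For Rtp4 the 5 Dp1Tyb hearts were at 6.678, 6.267, 6.354, 6.234 and 6.498, above WT hearts between 5.984 and 6.211. For Ifi44 they were at 5.806, 5.360, 5.430, 5.402 and 5.495, against 5.133 to 5.377 in WT. For Ifnar1 the same heart was at 11.16, inside the narrow Dp1Tyb range of 11.11 to 11.18. Without it, 2 of the 35 genes passed, Mx2 and Ifit2, which were also the only 2 of the 7 called without any one of the 15 hearts. Bst2 was also lost without Dp1Tyb replicate 2 or 4, Lgals3bp without Dp1Tyb replicate 3 or 4 or WT replicate 4, 5, 8 or 10, and Rigi without Dp1Tyb replicate 3 or 5 or WT replicate 1, 3, 4 or 5.

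In hearts labelled Dp1TybDyrk1a+/+/- 1 of the 35 genes passed, Mx2 at 0.18 (adjusted p = 0.0420), beside 0.712% of all genes. The median was 0.079, and 34 of 35 genes were above 0, of which 17 had an unadjusted p under 0.05. Rtp4 was at 0.25 (adjusted p = 0.108) with all 5 hearts above WT, Ifi44 at 0.20 (adjusted p = 0.270), Bst2 at 0.20 (adjusted p = 0.403), Lgals3bp at 0.18 (adjusted p = 0.327), Rigi at 0.13 (adjusted p = 0.274) and Ifit2 at -0.064 (adjusted p = 0.471). In this group too a single heart, replicate 3, was the highest of its group for all 6 genes higher in Dp1Tyb (Ifi44 at 5.647, Rtp4 at 6.544). The Mx2 call was kept in 5 of 15 fits that each left out 1 heart and was lost without WT replicate 1, 2, 3, 4, 5, 7 or 10 or Dp1TybDyrk1a+/+/- replicate 3, 4 or 5. Between Dp1Tyb and Dp1TybDyrk1a+/+/- 0 of the 35 passed (limma, 2 at an unadjusted p under 0.05), so a difference in the number of calls against WT was not shown to be a difference between the strains.

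The interferon-gamma and interleukin-10 branches had no call. Of 27 tested interferon-gamma response and antigen presentation genes, 0 passed in Dp1Tyb (limma, 8 at an unadjusted p under 0.05, all higher), with a median of 0.037, and 0 in Dp1TybDyrk1a+/+/- (7 unadjusted), with a median of 0.018. Of 7 tested interleukin-10 response genes 0 passed in either strain, with 0 in Dp1Tyb and 1, lower, in Dp1TybDyrk1a+/+/- at an unadjusted p under 0.05. Two-copy cytokine receptors of other families gave 2 calls among 26 in Dp1Tyb, Il1r1 at 0.15 (adjusted p = 0.0284) and Csf3r at 0.084 (adjusted p = 0.0242), with a median of 0.014. Neither call was kept without Dp1Tyb replicate 1, 2 or 3, and Csf3r was also lost without replicate 4 and Il1r1 without replicate 5.

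**Figure D5:**
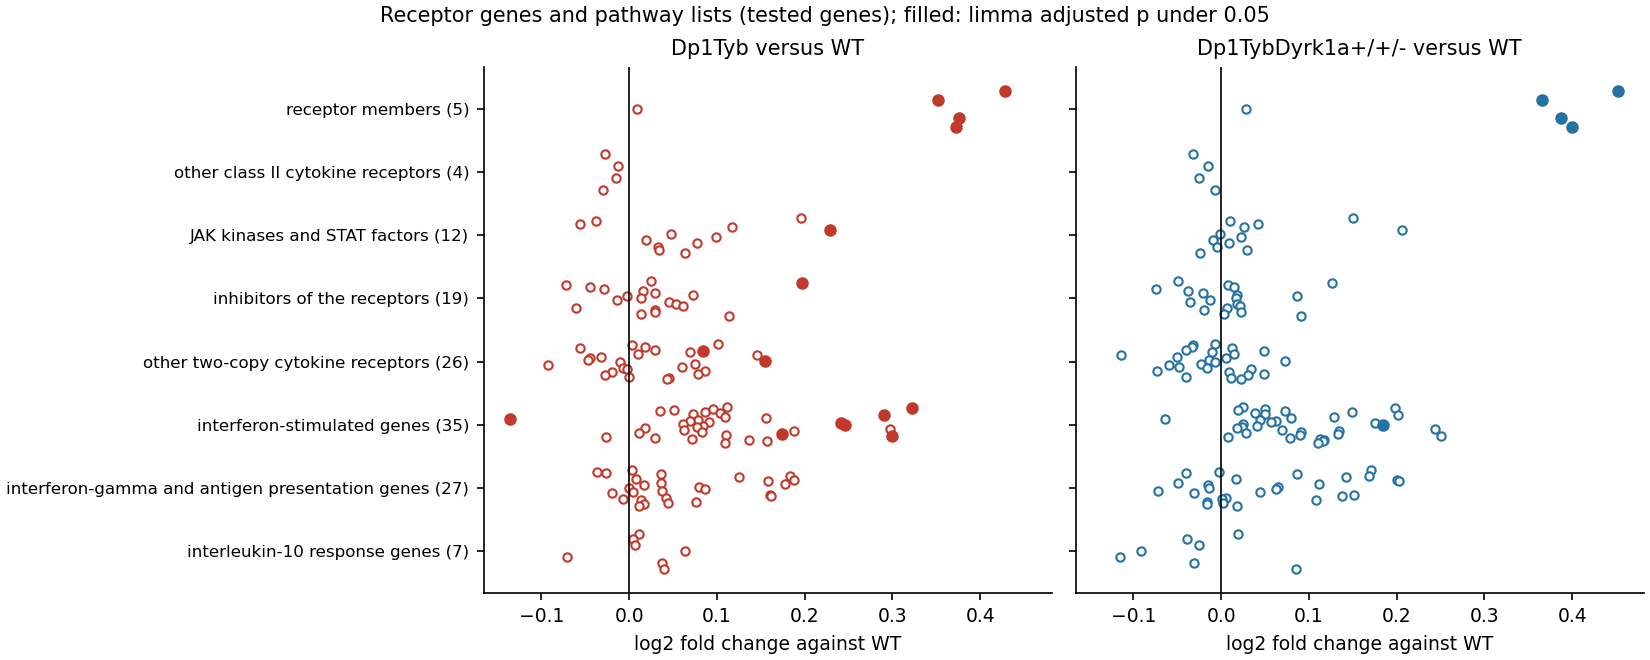
Log2 fold change against WT (x axis) of every tested gene in the receptor group and 7 pathway lists (y axis, number tested in brackets), in Dp1Tyb (left) and Dp1TybDyrk1a+/+/- (right); filled points have a limma adjusted p under 0.05. The 4 three-copy receptor genes stand apart to the right in both panels, and the calls among interferon-stimulated genes are 7 in Dp1Tyb and 1 in Dp1TybDyrk1a+/+/-.

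Markers of immune cells were set beside these values. For 16 macrophage markers, the log2 of their summed normalized counts ran from 11.25 to 11.49 in WT. It ran from 11.30 to 11.44 in Dp1Tyb and from 11.25 to 11.38 in Dp1TybDyrk1a+/+/-. Such a sum is weighted toward the most abundant markers. Of the 15 tested, 0 passed in Dp1Tyb (limma, 0 at an unadjusted p under 0.05). The log2 of the summed counts of 8 lymphocyte and neutrophil markers was low, from 5.081 to 5.179 in WT. It was 5.157 to 5.506 in Dp1Tyb and 5.163 to 5.330 in Dp1TybDyrk1a+/+/-, with Ncr1 at 0 in every heart. The 2 tested, S100a8 at 0.19 (adjusted p = 0.00959) and S100a9 at 0.18 (adjusted p = 0.0102), both genes of neutrophils, passed in Dp1Tyb and were highest in Dp1Tyb replicate 3, not replicate 1. Of 10 endothelial markers Plvap passed in Dp1Tyb, at 0.17 (adjusted p = 0.0367), in 7 of 15 fits without 1 heart. The part of these cells in the interferon-stimulated values was not tested.

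The way the 5 members varied from heart to heart within a genotype was described by the correlation of their residuals from the genotype means over 20 hearts, which share libraries and scaling. Ifnar1 and Ifnar2 had the closest relation of the 10 pairs, with Pearson r = 0.74, and the other pairs lay between -0.47 and 0.40. This order rests on Dp1TybDyrk1a+/+/- replicate 2. Over the 19 other hearts Ifnar1 and Il10rb were closest (r = 0.45, from 0.015), Ifnar1 and Ifnar2 were at 0.39, and the pair of Ifnar1 and Ifngr2 went from -0.47 to -0.18. Outside the duplication, the gene whose residuals were most like those of Ifnar1 was Sertad4 (r = 0.94, and 0.87 without that heart), followed by Zeb2, Cd55, Smarca2 and Dnm3. For Ifnar2 it was Snx4 (0.92 and 0.83), followed by Ube2r2, Ift74, Ssbp2 and Foxp1. For Ifngr2 it was Syk (0.93 and 0.90), followed by Asb2, Kcnh2, Tgm2 and Pdhb. The relations of Il10rb were weaker, led by Tmem203 (0.79 and 0.76) and with Creb3l4 and Per3 also among the closest, and those of Ifngr1 were led by Iah1 (0.82 and 0.68), then Dnajc10, Tmem86a, Rtkn and Serpine2.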

How the data were processed

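Polyadenylated RNA of 20 whole E13.5 hearts (10 WT, 5 Dp1Tyb, 5 Dp1TybDyrk1a+/+/-) was sequenced. The submitters' processing notes name Trimmomatic 0.36, STAR 2.5.2a, RSEM 1.2.31, DESeq, DESeq2 and GRCm38. The annotation release, strand setting and transformation are not given in the sources used here. The authors deposited log2 normalized counts of 48795 genes, of which 19473 were at 0 in every heart, and columns of no sample numbered 0. Library totals are not in these values, so depth is unknown, no counting interval was given, and precision rests on the spread between hearts.

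Groups came from the genotype labels. Genes were named with GENCODE M39 (44565 genes), which also gave transcript lengths and gene order, and coordinates and promoters came from RefSeq GRCm38.p6 (4 of 5 members in the promoter table, not Il10rb). The 15304 genes averaging 10 normalized counts or more entered a limma fit (limma 3.58.1, R 4.3.3, 1 mean per genotype, all 20 hearts, trended variance) with Benjamini-Hochberg adjustment at 0.05. The authors used DESeq2, which needs counts. Exact permutation tests used Python 3.11.15 with numpy 2.4.6, scipy 1.17.1 and pandas 2.3.3. The limma and permutation steps were tested on simulated data. No covariate was used in the fit reported; sex is not in the labels.

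The members and lists were chosen with earlier results of these data known. Named genes are the members in every heart, list genes past the threshold in any comparison, 12 fixed pathway genes, the 5 nearest tested genes on each side of the cluster with those between its members, and the 5 genes outside the duplication most like each member; some of these are not reported here. Alternatives were no filter, a filter at 100, quantile normalization, centring each heart on its median, a pseudocount of 1, no variance trend and a robust variance fit. Further ones were heart weights, the hearts of each pair of genotypes alone, lane as a covariate, single lanes, and leaving out each heart.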

Additional observations from a re-analysis of the deposited data

Results flagged for a closer look

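Of 27 groups of hearts examined for a value far from the rest, 2 had one, and chance gives about 1 in 20. Ifnar2 was at 9.647 in Dp1TybDyrk1a+/+/- replicate 2, with a gap of 0.847 of the range of its group of 5 to the next heart (limit 0.710). The same heart was the highest of all for Ifnar1 (11.31) and the lowest of its group for Ifngr2 (11.11) and Ifngr1 (8.758). Ifngr1 was at 8.747 in WT replicate 10, with a gap of 0.486 of the range of the 10 WT hearts (limit 0.466).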

How the results depend on the processing

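No paired analysis was possible because the replicate numbers follow the order of deposit and pair no hearts. Ifnar1, Ifnar2, Ifngr2 and Il10rb kept their direction and their call against WT in both duplication groups under every alternative with a test. Leaving out 1 heart at a time, the Dp1Tyb fold change (log2) ran from 0.42 to 0.44 for Ifnar1, 0.34 to 0.37 for Ifnar2, 0.37 to 0.38 for Ifngr2 and 0.36 to 0.39 for Il10rb, and that of Dp1TybDyrk1a+/+/- from 0.42 to 0.47, 0.32 to 0.38, 0.38 to 0.41 and 0.38 to 0.41.

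Within single lanes, which hold 1 to 4 hearts a group and have no test, Il10rb in Dp1Tyb was at 0.32 (lane 3) and 0.41 (lane 6). In Dp1TybDyrk1a+/+/- Ifnar2 was at 0.28 (lane 6), Il10rb at 0.35 (lane 3) and 0.50 (lane 6) and Ifngr1 at 0.084 (lane 3). The difference Dp1Tyb minus Dp1TybDyrk1a+/+/- was -0.088 for Il10rb (lane 6) and -0.10 for Ifngr1 (lane 3). The near-zero differences between these groups changed sign for Ifnar1 (0.0026 with quantile normalization, 0.0099 with weights per heart, -0.043 to 0.0098 leaving out 1 heart), Ifnar2 (0.029 with weights, -0.028 to 0.035 leaving out 1 heart) and Ifngr2 (0.012 with quantile normalization), none of them past the threshold.

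For the chain ratios, Ifnar1 to Ifnar2 in Dp1TybDyrk1a+/+/- against WT was 0.070 with quantile normalization (adjusted p = 0.0999), 0.16 in lane 6, 0.028 in lane 7 and 0.073 to 0.10 leaving out 1 heart. Between the duplication groups it was 0.013 with quantile normalization, -0.053 in lane 3, -0.063 in lane 6 and -0.025 to 0.0032 leaving out 1 heart, and Ifngr2 to Ifngr1 was 0.068 in lane 3, -0.035 in lane 6 and -0.0030 to 0.020 leaving out 1 heart. Il10rb to Il10ra was 0.44 (lane 6) and 0.32 (lane 7) in Dp1Tyb, 0.53 (lane 6) in Dp1TybDyrk1a+/+/-, and -0.057 with lane as a covariate (adjusted p = 0.0370) and -0.087 in lane 6 between the groups. Il10rb to Ifnlr1 was 0.49 (lane 6) and 0.28 (lane 7) in Dp1Tyb and 0.53 (lane 6) in Dp1TybDyrk1a+/+/-. Ifnlr1 in Dp1Tyb ran from -0.041 to 0.0076 leaving out 1 heart and changed sign without Dp1Tyb replicate 4.

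Counts of called list genes were the least steady. In Dp1Tyb against WT, interferon-stimulated genes numbered 4 with no filter on low values, 4 with a filter at 100, 14 with weights per heart and 2 to 10 leaving out 1 heart (2 without Dp1Tyb replicate 1). Kinases and STAT factors numbered 2 with weights, 2 with the hearts of that pair of genotypes alone and 0 to 2 leaving out 1 heart (0 without Dp1Tyb replicate 1, 2 without WT replicate 9). Inhibitors numbered 0 with the filter at 100, 2 with weights and 0 to 1 leaving out 1 heart (0 without Dp1Tyb replicate 1). Other cytokine receptors numbered 1 with no filter, 1 with the filter at 100, 4 with weights and 0 to 2 leaving out 1 heart. Interferon-gamma genes numbered 1 with the filter at 100, 3 with weights, 2 with the pair alone and 0 to 1 leaving out 1 heart (1 without WT replicate 7 or 9). In Dp1TybDyrk1a+/+/- against WT, interferon-stimulated genes numbered 0 with no filter, 0 with the filter at 100, 0 with no variance trend, 0 with lane as a covariate, 2 with quantile normalization, 2 with the pair alone, 9 with weights and 0 to 2 leaving out 1 heart. Kinases and STAT factors numbered 1 with weights and 0 to 1 leaving out 1 heart (1 without WT replicate 9), inhibitors 1 with weights, and interferon-gamma genes 5 with weights, 1 with the pair alone and 0 to 1 leaving out 1 heart (1 without WT replicate 6 or 9 or Dp1TybDyrk1a+/+/- replicate 5). Between the duplication groups other cytokine receptors numbered 2 with weights. With the filter at 100, Mx2, Ifi44, Rtp4, Isg15 and Csf3r were not tested, since each averaged below 100 normalized counts. Their calls could therefore not be made in that setting. The cause of the other changes was not tested. Of all comparisons of a setting with the reported value, other than those that leave out 1 heart, 12 of 195 for the members, 25 of 150 for the list counts and 16 of 72 for the ratios moved, reversed or changed call (for counts, went beyond 1.5 times). The depth of the libraries is unknown, and whether the transformation before deposit understates differences was not tested.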
